A study of Oryza sativa Japonica Group with 41 samples.

Results

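Histone lysine butyrylation (Kbu) after 6 h of submergence was examined as the set of chromatin regions called from 4 ChIP-seq libraries, 2 from submerged and 2 from control seedlings, out of the 41 samples of the series. The called peaks of the 4 libraries were merged wherever they overlapped by at least 1 bp, which gave 35127 regions, and the sequenced tags of each library's peaks were summed within each region. The same merging over all 26 libraries with an antibody gave 39174 regions.

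All seedlings were the rice cultivar Dongjin (Oryza sativa Japonica Group), 12 days old, and leaves were taken at ZT12, the hour of the light cycle given in the labels. Submerged seedlings were kept under distilled water for 6 h, and control seedlings were not submerged. The clock times that the labels give for the start and the harvest do not add up to this duration unless the start was at noon. Crotonylation (Kcr) and acetylation of histone H3 lysine 9 (H3K9ac) were profiled in the same groups with 2 libraries each, and 2 Kbu libraries came from seedlings kept in the dark for 48 h. A peak of these other libraries was counted whole, with all its tags, in the single Kbu region it overlapped most. Its tags can thus lie partly outside that region. A region described as without a peak of another mark may still be overlapped by one counted in a neighbouring region. Each group was pooled leaf tissue, so fewer cells with the mark and less mark per cell cannot be told apart. Whether the replicates were separate batches of plants was not given in the sources used here, so p-values measure the spread between these libraries only.

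Butyrylation attaches a short fatty acyl group, donated by butyryl-CoA, to a histone lysine. It is chemically close to acetylation and crotonylation, and in animal cells enzymes such as p300 can place all of these groups. Acyl marks on histone tails neutralise the positive charge of the lysine and are typical of the start of transcribed genes. Flooded rice tissue runs short of oxygen and turns to fermentation, and the comparison asks where Kbu differs in leaves under that stress. The Kbu antibody recognised butyryllysine at any site, so the regions do not tell the modified residues apart. The paper leaves open that some peaks stem from butyrylated proteins of chromatin that are not histones. Regions are given by their coordinates in the MSU7.0 assembly. Gene positions in that assembly were not used here, so no region is assigned to a gene and the tissue was not checked by marker genes.

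MACS, the peak caller, used 13331766 and 13636564 tags in the submerged Kbu libraries, against 17291342 and 15183353 in the control Kbu libraries. Its estimate of the fragment length was 195 and 202 bp in submerged, against 249 and 227 bp in control libraries, and called peaks held 48.0% and 50.5% of the tags, against 51.7% and 56.3%. The median called peak was 1279 and 1322 bp long in submerged, against 1617 and 1458 bp in control libraries. Submerged libraries were therefore shallower, with shorter fragments and shorter peaks, and the groups did not overlap in any of these values. With 2 libraries a group the smallest two-sided p of an exact permutation test is 0.33, so such values were not tested. The part of depth and fragment length in the results on width and level was not tested.

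Most butyrylated regions were present under both conditions. A peak was called in all 4 libraries in 27624 regions, or 78.6%. Regions with a peak in both submerged and neither control library ("appear") numbered 1356, which is 3.86% of all regions, and regions with a peak in both control and neither submerged library ("vanish") numbered 430, which is 1.22%. A further 2097 regions had a peak in 1 submerged library alone and 704 in 1 control library alone. Submerged libraries had more of the unshared peaks in both counts.

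Changes of level were tested in those 27624 regions, of which 3.89% held more than 1 peak of a library. At an adjusted p below 0.05 in edgeR (quasi-likelihood test), Kbu changed in 2019 regions, which is 7.31% of those tested. It rose in 925 regions (3.35%) and fell in 1094 (3.96%), and 7744 regions had an unadjusted p below 0.05. In all 2019 regions the scaled values of the 2 submerged libraries lay on one side of both control libraries. The call rests on these same values and favours such regions, so this adds no support. The share over all tested regions was not counted. The changes were modest. The median rise was 1.51-fold, with 69 regions past 2-fold, and the median fall was 1.43-fold, with 94 past 2-fold. Across the rising regions the log2 fold change ran between 0.28 and 1.99, and across the falling regions between -2.06 and -0.29. At the limit of the test, a region at chr2:27474624-27476077 with 118 and 151 tags in submerged and 257 and 244 in control libraries was called, and one at chr6:21564727-21567056 with 166 and 146 against 302 and 277 was not.

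The counts of rising and falling regions depended on how the libraries were scaled. The values above are relative to the bulk of the regions, which TMM scaling places near 0. With the tags that MACS used as library sizes the median region moved by -0.16 on the log2 scale, and 802 regions rose and 4118 fell. With the called length of each peak as an offset, which tests tags per kb, the median moved by 0.22, and 7036 rose and 142 fell. DESeq2's Wald test called 451 regions, of which 169 rose and 282 fell. Without the second control library 752 regions were called, 228 rising and 524 falling. By the 1.5-fold rule of the study's methods, applied in both replicate pairs to RPM (tags per 1000000 tags that MACS used), Kbu changed in 2.96% of the regions. It was higher in 136 (0.492%) and lower in 681 (2.47%), and with TMM-scaled tags these counts were 345 and 313. Between the 2 submerged libraries 693 regions differed by over 1.5-fold, and between the 2 control libraries 427.

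**Figure D1:**
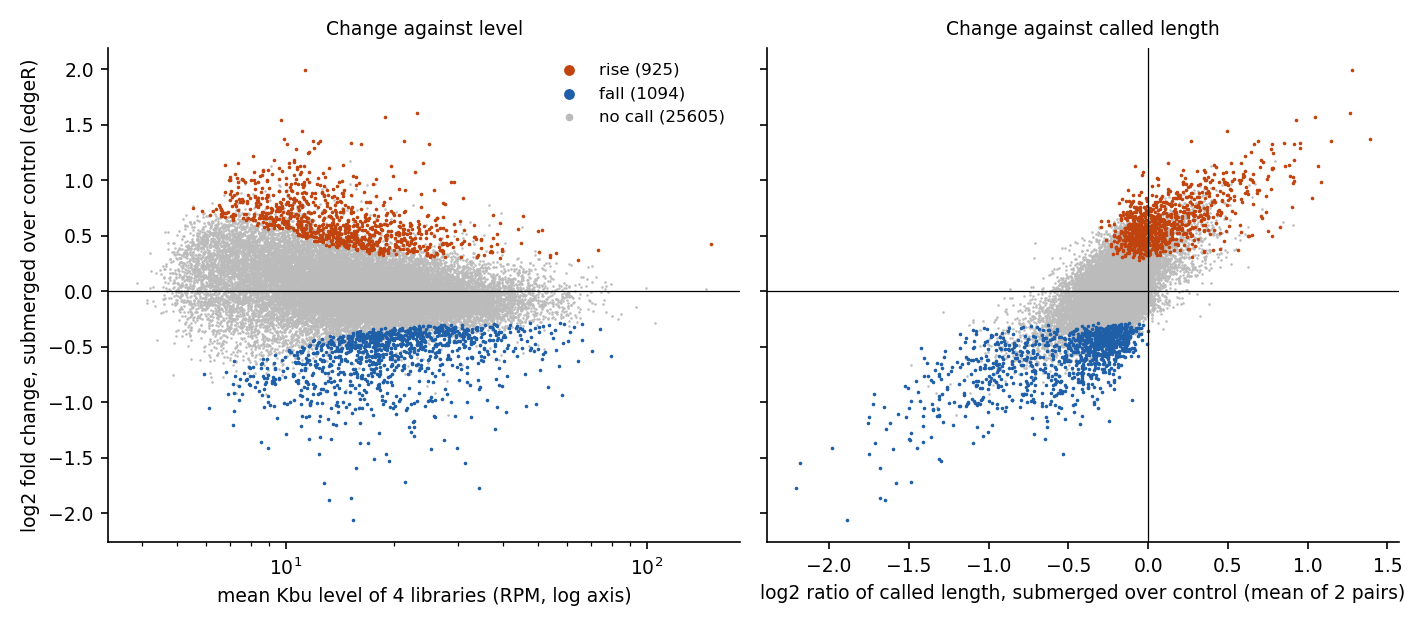
Each point is 1 of the 27624 tested Kbu regions; the vertical axis is the edgeR log2 fold change (submerged over control), against the mean Kbu level in RPM on a log axis (left) and against the log2 ratio of called peak length, submerged over control, as the mean of both replicate pairs (right). Rising regions (925) spread over the low and middle levels, and falling regions (1094) lie almost all to the left of 0 on the length axis.

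The largest rises were found on 8 chromosomes, in regions of 1688 to 4019 bp, with 2.52- to 3.98-fold more Kbu in submerged seedlings. The region with the largest rise, at chr10:22332574-22335444 (rise 1), held 236 and 242 tags in submerged against 84 and 77 tags in control libraries. Its log2 fold change was 1.99 ± 0.12 (SE; edgeR adjusted p = 0.00055). The called peak covered 2871 and 2568 bp of it in submerged, against 1126 and 1112 bp in control libraries. The called Kbu peak thus covered more of the region, while tags per kb differed less, with 82.2 and 94.2 against 74.6 and 69.2. H3K9ac rose in the same region, with 273 and 356 tags in submerged against 68 and 135 in control libraries (log2 fold change 1.78 ± 0.17, adjusted p = 0.000307).

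A region on chromosome 4, chr4:26583041-26586790 (rise 2), followed with 413 and 500 tags in submerged against 205 and 197 in control libraries (1.60 ± 0.09, adjusted p = 0.000508). Kcr rose there by 1.52 ± 0.09 (adjusted p = 0.0072), with 508 and 500 tags in submerged against 166 and 219 in control libraries. H3K9ac rose by 0.44 ± 0.10 (adjusted p = 0.013). The Kbu and Kcr peaks were both called longer in submerged libraries, for Kbu over 3173 and 3605 bp against 1384 and 1427 bp. With the length offset the Kbu change was 0.33 (adjusted p = 0.0572).

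At chr3:2169889-2172127 (rise 5) Kbu gained density as well as length. It held 203 and 222 tags in submerged against 108 and 101 in control libraries (1.45 ± 0.12, adjusted p = 0.00144), and the fold enrichment over local background was 7.01 and 6.93 against 4.74 and 3.37. The region at chr1:42101963-42103650 (rise 7) changed least in length among these 12, with 1507 and 1667 bp called in submerged against 1407 and 1228 bp in control libraries. Its tags were 231 and 217 against 133 and 102 (1.36 ± 0.14, adjusted p = 0.00309), and with the length offset the change was still 1.09 (adjusted p = 0.000123). No H3K9ac peak was called there in any of the 4 libraries. At chr6:24025109-24027357 (rise 8), 254 and 212 Kbu tags in submerged stood against 139 and 106 in control libraries. An H3K9ac peak of 485 and 581 tags was counted there in both submerged and neither control library. That peak was called over 5271 and 4610 bp and so extends past the region, which spans 2249 bp. Of these 12 regions, 9 had no H3K9ac peak in either control library, against 43.6% of all rising and 20.8% of all tested regions. With the length offset 9 of the 12 kept the call, as did 779 of the 925 rising regions. That offset moved the median of all tested regions upwards, as given above.

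The largest falls lay in regions of 1782 to 6301 bp on 7 chromosomes, with 2.77- to 4.17-fold less Kbu in submerged seedlings. At chr5:22450594-22454312 (fall 1) 66 and 80 tags were counted in submerged against 392 and 425 in control libraries, a log2 fold change of -2.06 ± 0.12 (adjusted p = 0.000513). The peak was called over 981 and 1006 bp in submerged against 3622 and 3717 bp in control libraries, so that only part of the control domain was called after submergence. H3K9ac followed, with no peak called in submerged and 190 and 199 tags in control libraries. The region at chr2:31454366-31457518 (fall 2) was of the same kind, with 70 and 69 Kbu tags against 337 and 349 (-1.88 ± 0.12, adjusted p = 0.00055), and H3K9ac fell there by 1.12 on the log2 scale (SE 0.07, adjusted p = 3.81e-05).

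The region at chr5:5632002-5635815 (fall 3) had 64 and 98 Kbu tags in submerged against 424 and 366 in control libraries (-1.86 ± 0.15, adjusted p = 0.00122). H3K9ac fell more steeply, with 53 and 82 against 414 and 441 tags (-2.51 ± 0.09, adjusted p = 6.6e-06). The difference between the marks did not pass the test (adjusted p = 0.0804), and Kcr, at 259 and 250 against 384 and 393 tags, had an adjusted p of 0.0864. At chr7:26061620-26063401 (fall 12) density fell as well as called length. The peak was called over 1112 and 1156 bp in submerged against 1782 and 1511 bp in control libraries, and tags per kb were 69.2 and 74.4 against 176.8 and 191.9. Kbu held 77 and 86 tags there against 315 and 290 (-1.47 ± 0.11, adjusted p = 0.00114), and the fold enrichment was 4.62 and 4.65 against 7.64 and 9.62. Fall 12 was the only one of the 12 that kept its call with the length offset (-0.93, adjusted p = 0.000301), as did 131 of the 1094 falling regions. Kcr (-1.15 ± 0.15, adjusted p = 0.022) and H3K9ac (-2.69 ± 0.12, adjusted p = 1.21e-05) fell there too.

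With the length offset 4 of these 12 falling regions had a value above 0, of which fall 7, at 0.086, lay below the 0.22 of the median region. The highest value was at chr3:1885842-1891544 (fall 8), where the submerged peak of 1216 and 1285 bp held 199 and 198 tags, against a control peak of 5691 and 5660 bp with 813 and 748 tags. Its log2 fold change was -1.55 ± 0.08 (adjusted p = 0.000508), and 0.63 with the length offset (adjusted p = 0.00206). Kcr was called over 1326 and 1317 bp in submerged and 1378 and 1355 bp in control libraries, about the submerged extent of Kbu, and held 197 and 194 against 184 and 235 tags. At chr2:3457806-3462368 (fall 11) the marks moved apart. Kbu held 134 and 116 tags in submerged against 520 and 411 in control libraries (-1.47 ± 0.13, adjusted p = 0.00209), whereas Kcr rose, with 312 and 301 tags against 149 and 184 (1.01 ± 0.10, adjusted p = 0.0116). In every one of the 12 falling regions both control libraries had an H3K9ac peak, as in 90.5% of all falling and 74.8% of all tested regions. H3K9ac fell in 6 of the 7 that had an H3K9ac peak in all 4 libraries. The share over regions with such peaks was 69.9% of falling and 17.9% of all Kbu regions.

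**Figure D2:**
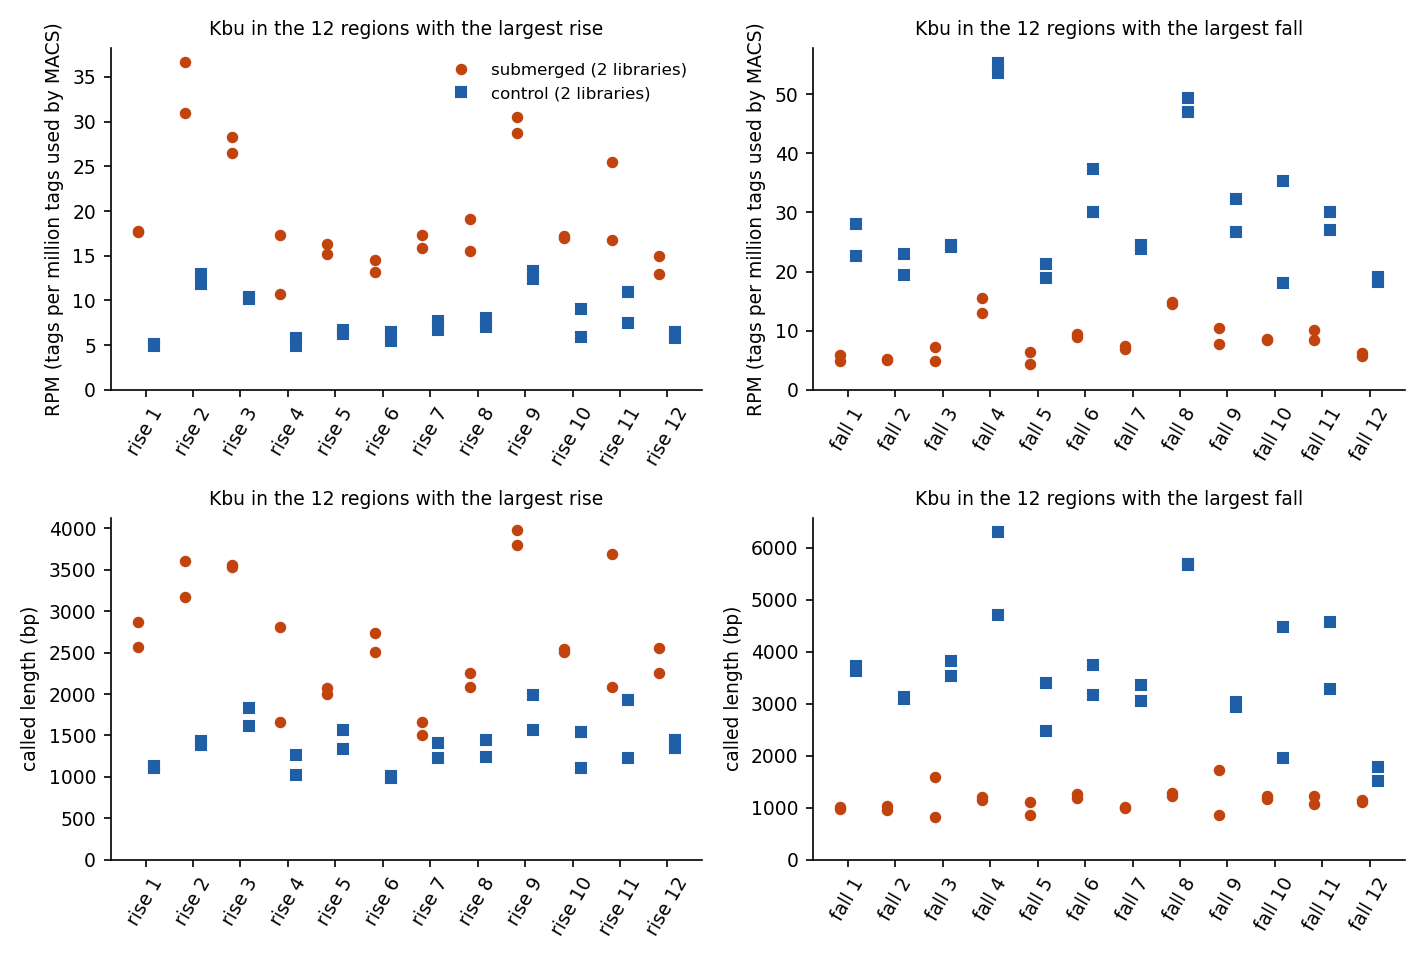
Kbu in each library for the 12 regions with the largest rise (left) and the 12 with the largest fall (right), in RPM (top) and as called peak length in bp (bottom); each point is 1 library, 2 submerged and 2 control. In rise 1 the submerged libraries lie at 17.7 RPM, against 4.86 and 5.07 in control, and in all 24 regions called length moved in the direction of the tags.

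Called length moved with the tags in nearly all falling regions, since 97.4% were called shorter in both replicate pairs, against 74.3% of all tested. Of the rising regions 37.5% were called longer in both pairs, against 2.71% of all tested, and 20.8% were called shorter. Tags were counted only within called peaks, so a longer or shorter call adds or removes tags by itself. Length changes past 1.5-fold went with the larger changes of tags. Of the 1094 falling regions, 290 were called over 1.5-fold shorter in both replicate pairs, and their median change was -0.75. In 613 falling regions the length stayed within 1.5-fold, and the median change was -0.45. Among the 925 rising regions only 29 were called over 1.5-fold longer in both pairs, at a median of 1.13, and 789 stayed within 1.5-fold, at 0.57. With the length offset 779 rising regions kept their call and none was called as falling, whereas 131 falling regions kept theirs and 114 were called as rising. Submerged peaks were called shorter in both pairs in 74.3% of all tested regions, and with the length offset the median of all tested regions lies at 0.22, so these counts are relative to that shift. Fold enrichment, which MACS computes against each library's own background, was higher in both pairs in 53.2% of rising regions, against 25.6% of all tested, and lower in both pairs in 57.5% of falling regions, against 33.3%.

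Rising regions were weakly butyrylated and falling regions strongly butyrylated before treatment. The median rising region had 15.9 RPM in submerged and 11.6 in control libraries, and the median falling region had 14.3 and 23.4, beside 14.9 and 16.7 in regions without a call. Both classes thus lay close to the same level after submergence. The control Kbu level enters the contrast, so these values only describe the classes. Kcr in the control libraries, which did not choose them, gave the same order, with a median of 10.9 RPM in rising regions, 18.7 in falling regions and 14.3 in all tested. Only regions with a Kbu peak in all 4 libraries could be called. A weak region that lost its peak under submergence is therefore not among the falls. Smaller changes can also be called where a region holds more tags. The part of these limits in the order was not tested, for Kbu or for Kcr. The control called length had a median of 1591 bp in rising and 2057 bp in falling regions, against 1562 bp in all tested regions. The span of the merged region, which joins both conditions, had a median of 1996 bp in rising, 2161.5 bp in falling and 1679 bp in all tested regions.

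When the tested regions with a Kcr peak in control seedlings were divided into 4 equal parts by the Kcr level there, Kbu rose in 5.39% of the lowest, 4.36%, 2.22% and 1.38% of the highest part, and fell in 1.02%, 2.66%, 4.71% and 7.51%. The median log2 change of all regions in these parts was 0.17, 0.03, -0.04 and -0.08, so that the bulk of weak regions also shifted upwards. After offsets that flatten this trend along the Kbu level (a loess curve per library), the rising share was 2.64%, 3.30%, 2.53% and 2.59%, and the falling share 2.12%, 2.98%, 3.73% and 5.07%. The order of the rises with starting level was thus lost with this scaling and that of the falls was kept. The limits given above for weak regions hold for these shares too. By the called length of the control Kcr peak, the falling share grew with width, at 0.97%, 2.33%, 4.26% and 8.34%, and the rising share was 3.10%, 2.27%, 3.21% and 4.78%. With the loess offsets both shares grew with width, the falling share to 6.32% and the rising share to 5.65% in the widest part, against 1.64% and 1.38% in the narrowest.

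**Figure D3:**
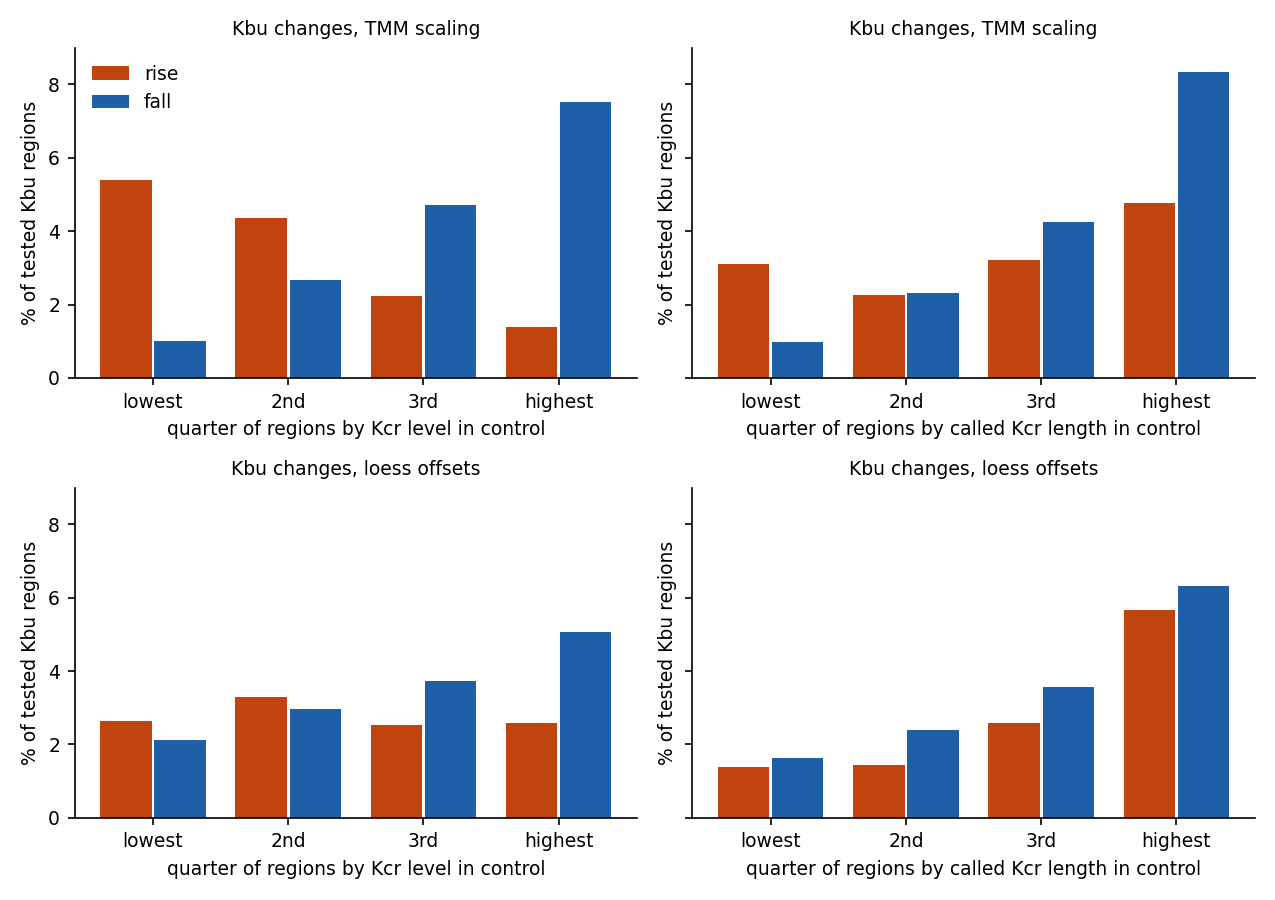
Share of the tested Kbu regions that rose or fell (bars, % of the regions in each part), for 4 equal parts of the regions by Kcr level (left) and called Kcr length (right) in control seedlings, with TMM scaling (top) and with loess offsets (bottom). The falling share reaches 7.51% in the part with the highest Kcr level and 8.34% in the widest, and the slope of the rising share with level (5.39% to 1.38%) is flat under loess offsets (2.64% to 2.59%).

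The estimated change of Kcr had the sign of the Kbu change in nearly all regions where it could be tested, but passed the test in few of them. In all Kbu regions with a Kcr peak in each of the 4 Kcr libraries, Kcr rose in 1.04% and fell in 0.632%. Of the 850 rising Kbu regions in which Kcr was tested, Kcr rose in 102 and fell in 0, with 625 and 2 at an unadjusted p below 0.05, and its median log2 change was 0.46. Of the 1042 falling Kbu regions tested, Kcr fell in 128 and rose in 2, and the median was -0.36, beside -0.01 in Kbu regions without a call. The estimate was above 0 in 841 of the 850 and below 0 in 994 of the 1042. The agreement in sign was also seen where called Kbu length stayed within 1.5-fold, with Kcr above 0 in 729 of 734 rising and below 0 in 597 of 600 falling regions. Regions without a Kcr peak in a library were not tested, which leaves out 75 of the 925 rising and 52 of the 1094 falling regions. Whether the Kbu and Kcr libraries came from the same chromatin was not given in the sources used here.

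H3K9ac was called as changed in a larger share of these regions than Kcr, and the counts also depend on the spread between the replicates of each mark. H3K9ac changed in 31.7% of the Kbu regions with an H3K9ac peak in each library, against 1.68% for Kcr, and it rose in 13.8% and fell in 17.9%. Only 416 of the 925 rising Kbu regions could be tested, and H3K9ac rose in 277 and fell in 4 of them, with a median of 0.49. Of 867 falling Kbu regions tested, H3K9ac fell in 606 and rose in 8, with a median of -0.50. Many rising Kbu regions had no acetylation peak. Both control H3K9ac libraries had a peak in 47.0% of rising regions, against 90.5% of falling and 74.8% of all tested regions. An H3K9ac peak appeared, in both submerged and neither control library, in 75 rising regions (8.11%), against 2.22% of regions without a call.

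The difference between the responses of the marks was tested as an interaction. For Kbu against Kcr it passed in 2 of 26114 regions (0.00766%), with only 998 (3.82%) at an unadjusted p below 0.05. The 2 regions that passed are named above (fall 8 and fall 11). For Kbu against H3K9ac it passed in 1329 of 19656 regions (6.76%), with the more positive change in Kbu in 954 (4.85%) and the more negative one in 375 (1.91%). Among rising Kbu regions 37 of 416 passed, and among falling regions 193 of 867.

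**Figure D4:**
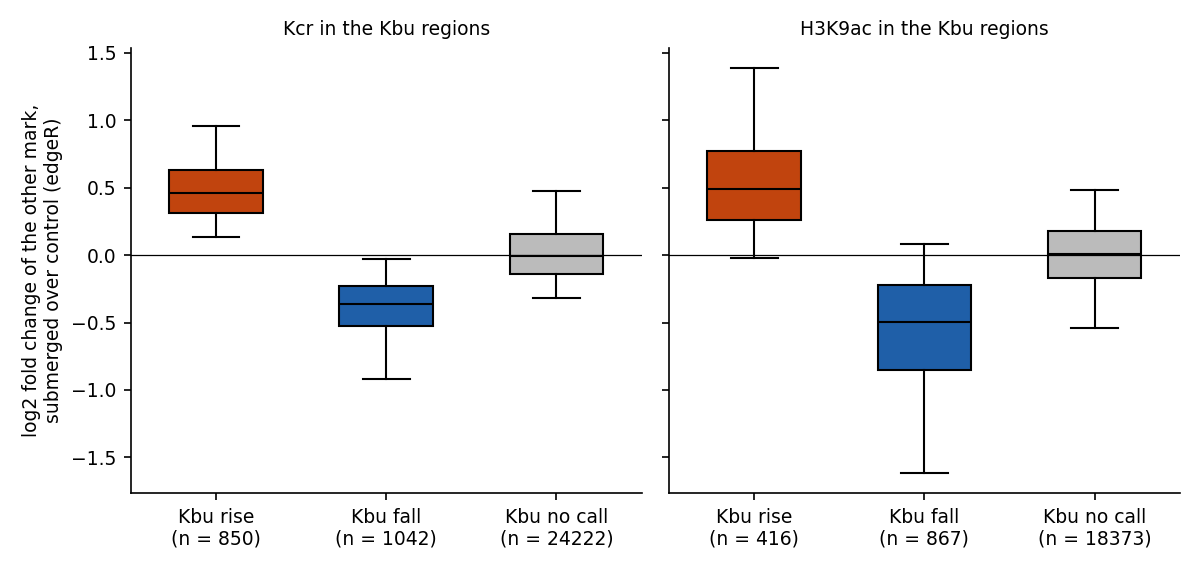
Log2 fold change (submerged over control, edgeR) of Kcr (left) and H3K9ac (right) in Kbu regions that rose, fell or had no call; boxes span the middle 50% of regions around the median, whiskers run to the 5th and 95th percentile, and n is the number of regions with a peak of the other mark in all 4 libraries. The medians are 0.46, -0.36 and -0.01 for Kcr and 0.49, -0.50 and 0.01 for H3K9ac.

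Regions that appeared or vanished were small and weak. The median called length was 1042 bp in the regions that appeared and 1380 bp in those that vanished, against 1339 bp in submerged and 1549.5 bp in control libraries for regions without a call. The regions that appeared held a median of 83 and 85 tags in the submerged libraries, and those that vanished 131 and 109.5 tags in the control libraries. Their median fold enrichment was 4.34 and 3.77. The MACS score, a multiple of the −log10 of the p of the peak, stayed under 100 in every library with the peak in 66.2% of the regions that appeared and 53.3% of those that vanished, against 1.56% of the tested regions. Of the regions that appeared, 402 held at least 100 tags in both submerged libraries and 14 at least 300, and of those that vanished 242 and 10 did so in both control libraries. With 1 control library in place of 2, the number that appeared was 1984 or 2167, and with 1 submerged library in place of 2 the number that vanished was 803 or 832.

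A missing call does not measure an absence of tags, since tags outside called peaks are not part of these values. At chr2:28719267-28722155, the strongest of those that appeared, a peak of 1658 and 1712 tags was called in submerged libraries and none in control libraries. Kcr was called there in every library, with 1876 and 1772 tags in submerged and 1748 and 1753 in control libraries, and a peak of the input library, made without antibody, overlapped it. The fold enrichment of the Kbu peak was 4.80 and 4.48. The control Kbu level of such a region is unknown. At chr4:30938094-30943791 Kbu had 734 and 758 tags in submerged libraries and no peak in control, H3K9ac had 869 and 1040 tags in submerged libraries and no peak in control, and Kcr had 797 and 727 tags in submerged and a peak of 490 tags in 1 control library. The region at chr3:28111236-28114421 had peaks of Kbu (403 and 406 tags) and Kcr (404 and 387 tags) in submerged but not in control libraries. No H3K9ac peak was counted there in either group. Both Kbu libraries of seedlings kept in the dark also had a peak there, with 409 and 427 tags. Of the 8 strongest regions that appeared, 7 had a Kbu peak in both dark libraries, against 15.3% of all that appeared and 76.5% of all regions.

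Among the regions that vanished, chr1:23979946-23982629 lost the calls of all 3 marks under submergence. No peak of any mark was called there in submerged libraries, against 360 and 343 Kbu tags, 211 and 357 Kcr tags and 107 and 122 H3K9ac tags in control libraries. The region at chr4:22828847-22830591 had the same pattern, with no peak in submerged libraries against 348 and 336 Kbu, 223 and 292 Kcr and 182 and 211 H3K9ac tags in control libraries, and an input peak overlapped it. At chr3:6390294-6392207 neither Kbu nor Kcr was called in submerged libraries, against 327 and 358 Kbu and 227 and 320 Kcr tags in control libraries. No H3K9ac peak was counted there in any submerged or control library. Of the 8 strongest regions that vanished, 5 had no Kcr peak in either submerged library, against 57.7% of all that vanished and 6.39% of all regions. All 8 strongest regions that appeared had a Kcr peak in both, against 61.7% of all that appeared and 85.9% of all regions.

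Over the whole lists, Kcr also appeared in 24.3% of the regions where Kbu appeared, against 2.85% of all regions, and vanished in 18.4% of those where Kbu vanished, against 0.828%. The figures for H3K9ac were 5.09% against 2.40%, and 11.2% against 1.72%. A Kcr peak was present in both control libraries in 14.2% of the regions where Kbu appeared, against 80.5% of all regions, and an H3K9ac peak in 2.51%, against 60.3%. In seedlings kept in the dark, both Kbu libraries had a peak in 15.3% of the regions that appeared and 27.4% of those that vanished, against 76.5% of all regions. The 5717 regions with a peak in only some libraries and in neither list were closer to these lists. Kcr appeared in 10.4% and vanished in 2.64% of them, and H3K9ac in 2.08% and 1.87%. Both control libraries had a Kcr peak in 24.3% and an H3K9ac peak in 7.42% of them, and both dark Kbu libraries had a peak in 19.5%.

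Changed regions were found on all 12 chromosomes. Kbu rose in between 2.80% of the tested regions of chromosome 6 and 3.91% of those of chromosome 4. Falls varied more, between 2.23% on chromosome 11 (38 of 1706) and 4.88% on chromosome 7 (105 of 2150). Chromosomes 11 and 12 carried the fewest regions per Mb, 77.6 and 74.2, and were among the 5 on which rises outnumbered falls, with 64 against 38 and 61 against 48. Regions appeared in 3.25% (chromosome 3) to 4.93% (chromosome 9) of all regions and vanished in 1.03% (chromosome 9) to 1.64% (chromosome 5).

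**Figure D5:**
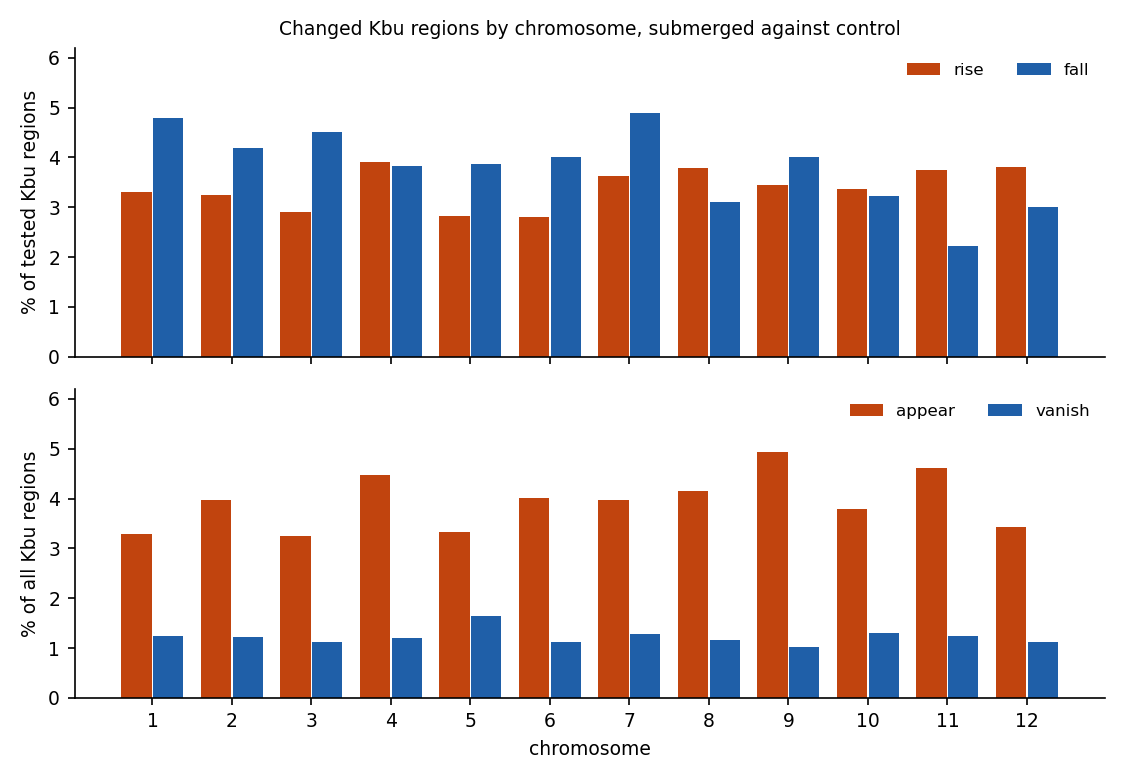
Share of Kbu regions that rose or fell, as % of the tested regions (top), and that appeared or vanished, as % of all regions (bottom), on each of the 12 chromosomes. The falling share is lowest on chromosome 11 (2.23%) and highest on chromosome 7 (4.88%).

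Along the chromosomes, with the last called peak taken as the end, 29.3% of rising regions lay within the outer 10% at either end, against 24.4% of all tested regions, and the figures were 25.5% for falling regions, 24.6% for those that appeared and 19.5% for those that vanished. Falls were more frequent where butyrylated regions were dense. In 4 equal parts of the tested regions by the number of regions in their 1-Mb window, Kbu fell in 2.42% of the sparsest part and 5.04% of the densest, and rose in 3.88% and 3.01%. Regions that changed alike also lay side by side. A neighbouring region of the same class was found for 177 of the 1094 falling regions (16.2%), while 7.34% of the other tested regions had a falling neighbour, and for 104 of the 925 rising regions (11.2%), while 6.35% of the others had a rising neighbour. For regions that appeared these figures were 7.01% and 7.55%. In single windows the numbers stayed small, with at most 8 rising regions, as in the first Mb of chromosome 12 (8 of 110 tested), and at most 12 falling ones, between 7 and 8 Mb of chromosome 3 (12 of 99 tested, with 0 rising).

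The position of the Kbu maximum was compared as the distance between summits. In regions with 1 peak per library the summit shifted by a median of 54 and 49 bp in rising and 58 and 43 bp in falling regions between the submerged and the control library of a pair, against 39 and 32 bp in regions without a call. Between the 2 submerged libraries the median was 45 bp in rising and 40 bp in falling regions, and between the 2 control libraries 41 and 39 bp. Shifts over 300 bp between submerged and control occurred in 12.5% and 12.0% of rising and 12.2% and 12.5% of falling regions, against 6.50% and 6.34% of those without a call. Within the submerged group they occurred in 11.8% of rising and 10.5% of falling regions, and within the control group in 8.45% and 7.65%.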

How the data were processed

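Leaf chromatin of submerged and control rice seedlings was immunoprecipitated with antibodies against Kbu, Kcr or H3K9ac, 2 libraries each. After trimming (Trimmomatic), the authors aligned reads with Bowtie2 2.2.5 to the MSU7.0 assembly, took out duplicates with SAMtools 0.1.19 and ran MACS 1.4.2. Per the file headers, no control library was named, the band width was 300 bp, the p cutoff 1.00e-05, the regional lambda 10000 bp, and at most 1 tag per position was kept. The deposited tag count of a peak is not normalized. Its score, as deposited, rises with the −log10 of its p and is at least 50. Its fold enrichment, as deposited by the authors, is a ratio over the same library's background. Reads outside peaks are not part of the values.

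Peaks were merged at 1 bp overlap and tags summed. Kbu was tested with edgeR 4.0.16 (TMM, quasi-likelihood, no block; common dispersion 0.00444) in R 4.3.3, with adjusted p below 0.05, and Kcr and H3K9ac likewise in regions with a peak in each of their 4 libraries. DESeq2 1.42.0, other scalings, filters, overlaps and left-out libraries were alternatives. In a simulation of 27624 regions with 200 changed 2-fold, 100% of these were called and 13 others, and 0 without change. It used one dispersion, near the common one, for every region and no shift of level or called length between groups. Changes of the median called size, 1.51-fold for rises and 1.43-fold for falls, were not simulated, so it does not measure the error in these data. Named regions were the 12 largest rises and 12 largest falls with at least 50 mean tags in the higher group and the same direction in both pairs, and the 8 strongest that appeared or vanished. Regions, lists and classes were chosen with earlier results of these data known. Gene lists and sequences planned at the start were not used, since no annotation of this assembly was used here.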

Additional observations from a re-analysis of the deposited data

Results flagged for a closer look

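In 5 of the 24 regions named for a large Kbu change, the response to submergence differed between Kbu and another mark by the interaction test (edgeR, adjusted over all regions tested). Rise 7, rise 8, rise 10, rise 12 and fall 1 could not be tested against either mark. Over all regions tested, 6.76% passed against H3K9ac and 0.00766% against Kcr. The 24 regions were chosen by their Kbu change, which enters this test, so a larger change in Kbu is favoured among them. At chr4:26583041-26586790 (rise 2) the Kbu change was above that of H3K9ac by 1.19 on the log2 scale (adjusted p = 0.000813), with Kbu higher in both submerged than in both control libraries. At chr7:26061620-26063401 (fall 12) the difference was 1.25 (adjusted p = 0.00418), since H3K9ac fell further than Kbu, and at chr2:31454366-31457518 (fall 2) it was -0.73 (adjusted p = 0.00784), since Kbu fell further.

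Against Kcr the difference was -1.59 at chr3:1885842-1891544 (fall 8) and -2.49 at chr2:3457806-3462368 (fall 11), each with an adjusted p of 0.00177. In both regions the control Kbu peak was called far longer than the control Kcr peak, at 5691 and 5660 bp against 1378 and 1355 bp in fall 8 and at 4563 and 3282 bp against 1334 and 1383 bp in fall 11. The part of called length in these differences was not tested.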

How the results depend on the processing

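The number of regions called by edgeR in either direction was 2019, and it moved to 4920 with the tags used by MACS as library sizes, 7178 with called length as an offset and 451 with DESeq2's Wald test. With a peak required in 2 libraries only, 2485 regions were called, 1616 higher and 869 lower, against 925 and 1094. Leaving out 1 library gave between 752 (without the second control library) and 2046 calls, and 1342 without the first submerged library, where the lone library of a group was assumed to vary like the other group. DESeq2 size factors, loess offsets, a mean of at least 100 tags, a score of at least 100, merging at 50% overlap and a fit of 6 libraries left the count within 1.5-fold. The cause was not tested, except that the length offset and the MACS library sizes move the median of all regions.

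The deviations of same-numbered libraries from their group means correlated at 0.079. In groups of 2 libraries these deviations mirror each other, so this value cannot show whether the replicate numbers pair the libraries. Replicate pairs are libraries with the same number, and whether they share a batch was not given in the sources used here. With the replicate block 3391 regions were called, and the block changed no call among the 24 named regions.

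By the 1.5-fold rule 817 regions changed, 101 with tags per kb of called peak and 121 past 2-fold (an alternative chosen after seeing the data, as were the loess offsets and the single pairs), and 1900 to 2466 when 1 pair decided. Regions that appeared numbered 1984 to 2437 and those that vanished 699 to 865 without 1 library, against 1356 and 430. With a score of at least 100, 909 appeared and 608 vanished, and of the 8 named regions each 6 and 4 kept the pattern. Submerged libraries had 2497 more peaks than control libraries on average, between 2117.5 and 2876.5 without 1 library, and 892 more with a score of at least 100. Kcr calls ranged between 286 (without the first submerged library) and 576, with 299 without the second control library, against 456. H3K9ac calls ranged between 3946 (without the second submerged library) and 4927, against 6325.

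Of the 24 named regions, the length offset turned the sign in 5, with log2 changes of -0.020 in rise 6, 0.43 in fall 4, 0.086 in fall 7, 0.63 in fall 8 and 0.29 in fall 11, and 9 others lost their call. DESeq2's Wald test lost rise 11 and fall 10 (adjusted p = 0.154 and 0.173), leaving out the second control library lost 2 of 24, and requiring a peak in 2 libraries only lost 4 (rise 4, rise 10, rise 11 and fall 10, adjusted p between 0.101 and 0.173). At the median of 175 and 189 tags in submerged and 266 and 247 in control peaks, counting error limits a single region, and signal outside called peaks was not measured.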

Other observations

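Of the 5717 regions outside the classes described, 702 had a peak in 1 submerged and 1 control library, 1439 in both submerged and 1 control library and 775 in both control and 1 submerged library. The MACS score was under 100 in every library with the peak in 71.9% of these 5717 regions, and both Kcr libraries of submerged seedlings had a peak in 41.3% of them, against 85.9% of all regions.

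An input peak overlapped 0.973% of rising and 0.457% of falling Kbu regions, and 0.516% of those that appeared and 1.16% of those that vanished, against 0.495% of all regions. More than 1 peak in a library was found in 6.59% of rising and 7.95% of falling regions, against 3.62% of regions without a call. The gap to the next region had a median of 2661.5 bp for regions that appeared, 2760.5 bp for those that vanished and 2733 bp for the 5717 above, against 3466 bp for all regions.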
